A study of Mus musculus with 48 samples.

Results

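*Csf2rb*, *Csf2rb2*, and *Csf2ra* encode chains of the receptors for granulocyte-macrophage colony-stimulating factor (GM-CSF), interleukin-3 (IL-3), and interleukin-5 (IL-5). They were taken by gene name from the deposited tables and are 3 of the 56748 genes measured in each library. The genes were selected on measured values of these same libraries, since differences between KPC and control muscle were already known, so that contrast is described here for the 3 genes without a test. The levels of all 3 were measured in skeletal muscle across genotype, tumor, and circadian time.

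The RNA came from whole tibialis anterior, a muscle of the lower leg, with 1 library per mouse and 48 libraries in all. All mice were males labelled as 39 to 55 weeks old. KPC mice had received KPC cells, a mouse pancreatic cancer line, in the pancreas, and control mice had received saline (PBS) in the same way. FoxP1SkmKO mice were Foxp1fl/fl; Acta1-cre, in which Cre under a promoter active in skeletal muscle fibers deletes the transcription factor gene *Foxp1*. WT mice were Foxp1fl/fl without Cre according to the series description, although their genotype label reads C57BL/6J. All mice were held in constant darkness and were sampled at circadian time (CT) 18, 22, 26, 30, 34, or 38, where CT18 is midnight and CT30 is noon by the clock, with 2 mice for each genotype, condition, and time. Averaged over the 6 times, each genotype and condition is represented by 12 mice.

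The libraries held 14480867 to 20787784 counted reads, with a median of 16602091. *Foxp1* was at 0.430 to 0.971 FPKM (fragments scaled to transcript length and library depth) in WT control mice and at 0.430 to 0.642 in FoxP1SkmKO control mice. Its log2 fold change between FoxP1SkmKO and WT was -0.11 in control mice (standard error 0.07, adjusted p = 0.459) and -0.20 in KPC mice (standard error 0.07, adjusted p = 0.246; edgeR's quasi-likelihood test, Benjamini-Hochberg method). The gene count therefore did not separate the genotypes, which are named as labelled. The 6 muscle fiber markers summed to 37780 to 51830 FPKM in every library. Some libraries stood apart in immune cell markers. The library labelled FoxP1SkmKO KPC CT30 replicate 2 had 19.25 summed FPKM of 8 neutrophil markers, and the next highest library had 6.304. The library labelled FoxP1SkmKO control CT18 replicate 2 had 0.4812 FPKM of *Ptprc*, the gene of the leukocyte antigen CD45, and the next highest had 0.2487. Values without these libraries are given beside the receptor genes below.

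GM-CSF, IL-3, and IL-5 act through receptors made of a private alpha chain, which recognizes the ligand, and a shared beta chain, which carries the signal. *Csf2rb* encodes the common beta chain used by all of these ligands. *Csf2rb2* encodes a close paralog that, in mice, serves the IL-3 receptor, and *Csf2ra* encodes the alpha chain of the GM-CSF receptor. Ligand binding activates the kinase JAK2 held by the beta chain, and the transcription factor STAT5 and the Ras and phosphoinositide 3-kinase pathways follow. These receptors are known mainly from myeloid cells, including monocytes, macrophages, neutrophils, eosinophils, mast cells, and dendritic cells, where they support survival and activation. In bulk muscle, fewer cells of a type and less RNA per cell cannot be told apart.

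The beta chain genes lie head to head on chromosome 15, and their coding sequences are closely alike. *Csf2rb* (ENSMUSG00000071713) spans 78209952 to 78238047 on the plus strand of mm39 and *Csf2rb2* (ENSMUSG00000071714) spans 78166707 to 78189921 on the minus strand, which leaves 20030 bases between their 5′ ends. *Csf2ra* (ENSMUSG00000059326) is on chromosome 19, from 61212395 to 61216867 on the minus strand. Over 2628 aligned coding bases, *Csf2rb* and *Csf2rb2* were 95.2% identical. Of the 1883 aligned coding windows of 150 bases, 165 (8.76%) were identical in both genes, and the median window held 5 differing bases. The stretch of 120 coding bases within a single exon that differs most is shown here for both genes, from GRCm39 in the direction of each gene, with the 16 differing bases in capitals. It lies in coding exon 3 of 13 in each gene, at chr15:78223067-78223186 on the plus strand for *Csf2rb* and at chr15:78178545-78178664 on the minus strand for *Csf2rb2*.

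Csf2rb: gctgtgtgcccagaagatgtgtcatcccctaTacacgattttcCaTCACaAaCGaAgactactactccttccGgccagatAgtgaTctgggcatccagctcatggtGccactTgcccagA
Csf2rb2: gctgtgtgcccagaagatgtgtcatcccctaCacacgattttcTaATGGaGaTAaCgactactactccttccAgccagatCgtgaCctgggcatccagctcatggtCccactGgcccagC

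Reads from such a stretch can be assigned to either gene, whereas a read within an identical window cannot be by its own bases. The libraries are paired-end, and the mates of such reads were not considered. Only coding bases were compared, 2688 in *Csf2rb* and 2634 in *Csf2rb2*, of annotated lengths of 7277 and 4740. How reads shared by the paralogs were treated is not given in the sources used here. Values of either beta chain gene alone are uncertain to that extent. The 250 bases before the annotated start site are shown for *Csf2rb2* and *Csf2ra*. The mean of *Csf2rb2* was higher in KPC than in control muscle at 6 of 6 times in both genotypes. That of *Csf2ra* was higher at 6 of 6 times in WT and at 3 of 6 in FoxP1SkmKO mice. The stretches are from RefSeq on GRCm38.p6, which held 2 of the 3 genes. *Csf2rb* had no entry. The *Csf2rb2* stretch is chr15:78305722-78305971 and the *Csf2ra* stretch is chr19:61228419-61228668, both on the minus strand and printed 5′ to 3′, with motif matches in capitals.

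Csf2rb2: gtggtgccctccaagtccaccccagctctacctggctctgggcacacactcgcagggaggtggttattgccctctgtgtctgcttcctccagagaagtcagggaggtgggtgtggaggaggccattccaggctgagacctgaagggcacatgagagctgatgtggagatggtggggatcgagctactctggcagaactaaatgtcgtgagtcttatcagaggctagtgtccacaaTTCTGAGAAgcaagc
Csf2ra: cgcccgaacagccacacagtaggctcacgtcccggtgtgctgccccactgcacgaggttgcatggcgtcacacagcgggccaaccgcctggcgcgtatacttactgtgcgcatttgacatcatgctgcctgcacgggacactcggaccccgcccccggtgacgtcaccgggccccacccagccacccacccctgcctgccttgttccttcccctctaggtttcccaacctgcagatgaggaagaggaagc

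The motifs searched on both strands were the STAT motif TTCNNNGAA, the forkhead motif TGTTTAC, the E-box CACGTG, the PU.1 motif GAGGAAGT, and the C/EBP motif TTGCGCAA. Each was searched as these exact letters, with N as any base. None of these motifs overlaps another in the stretches shown. *Csf2rb2* held 1 match, to the STAT motif, whose first base lies 15 bases before the start site. The STAT motif was present in 7.02% of the 32851 promoters of the same length, the forkhead motif in 3.17%, the E-box in 6.02%, the PU.1 motif in 2.44%, and the C/EBP motif in 0.164%. *Csf2ra* held no match to these exact letters. The PU.1 motif without its final T occurs near the end of the *Csf2ra* stretch, and also on the other strand of the *Csf2rb2* stretch. The share of all promoters with this shorter form was not computed. The *Csf2ra* stretch had a GC content of 64.8% and 17 CpG dinucleotides, against 56.4% and 3 for *Csf2rb2*, and the medians over all promoters were 52.4% and 6.

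*Csf2rb*, the common beta chain gene, had a higher mean in KPC than in control muscle in both genotypes at each of the 6 times. It was at 0.256 FPKM in the lowest, 0.399 in the median, and 0.715 in the highest of the 12 WT control mice, and at 0.557, 0.888, and 1.64 in the WT KPC mice. In FoxP1SkmKO mice, the lowest, median, and highest values were 0.246, 0.395, and 1.1 FPKM without tumors and 0.351, 1.05, and 1.41 with tumors. In WT mice, 10 of the 12 KPC values lay above the highest control value, whereas in FoxP1SkmKO mice 3 of 12 did. The share of all genes separated in this way was not computed, here or for the genes below. The highest FoxP1SkmKO control value was that of the library labelled CT26 replicate 1, which also had the highest summed neutrophil markers of that group, at 2.895 FPKM. Averaged over the 6 times, the log2 fold change between KPC and control was 1.16 in WT mice (standard error 0.18, 2.23-fold) and 0.96 in FoxP1SkmKO mice (standard error 0.18, 1.95-fold). In FoxP1SkmKO mice, the value was 1.06 without that library, 1.045 without the CD45-rich control library at CT18 replicate 2, and 0.83 without the neutrophil-rich KPC library at CT30 replicate 2.

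*Csf2rb2*, the IL-3 receptor beta chain gene, was also higher on average in KPC than in control mice of both genotypes. It was at 0.366 FPKM in the lowest, 0.591 in the median, and 0.881 in the highest WT control mouse, and at 0.570, 1.52, and 2.31 in WT KPC mice. In FoxP1SkmKO mice, the values were 0.451, 0.649, and 1.55 FPKM in controls and 0.712, 1.38, and 2.36 in KPC mice. In WT mice, 11 of the 12 KPC values exceeded the highest control value, and in FoxP1SkmKO mice 4 of 12 did, the highest control again being CT26 replicate 1. The averaged log2 fold change was 1.22 in WT mice (standard error 0.16, 2.33-fold) and 0.98 in FoxP1SkmKO mice (standard error 0.16, 1.98-fold). In FoxP1SkmKO mice, it was 1.047 without that control library, 1.035 without the CD45-rich control library, and 0.907 without the neutrophil-rich KPC library. When the counts of both paralogs were summed before the fit, the log2 fold change was 1.19 in WT and 0.98 in FoxP1SkmKO mice.

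*Csf2ra*, the GM-CSF receptor alpha chain gene, overlapped between KPC and control muscle in both genotypes. It was at 0.326 FPKM in the lowest, 0.690 in the median, and 1.48 in the highest WT control mouse, and at 0.426, 1.15, and 1.63 in WT KPC mice. In FoxP1SkmKO mice, it was at 0.468, 0.845, and 1.81 FPKM in controls and at 0.403, 0.934, and 1.23 in KPC mice. In WT mice 3 of 12 KPC values lay above the highest control value, and in FoxP1SkmKO mice 0 of 12 did. The averaged log2 fold change was 0.49 in WT mice (standard error 0.17, 1.40-fold). In FoxP1SkmKO mice, the fold was 1 (standard error of the log2 fold change 0.16). The log2 fold change there was 0.131 without the CD45-rich control library and -0.106 without the neutrophil-rich KPC library. Across all 48 libraries, the reads behind these values were few, from 15 to 228 per gene and library, which limits the precision of any single mouse.

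**Figure D1:**
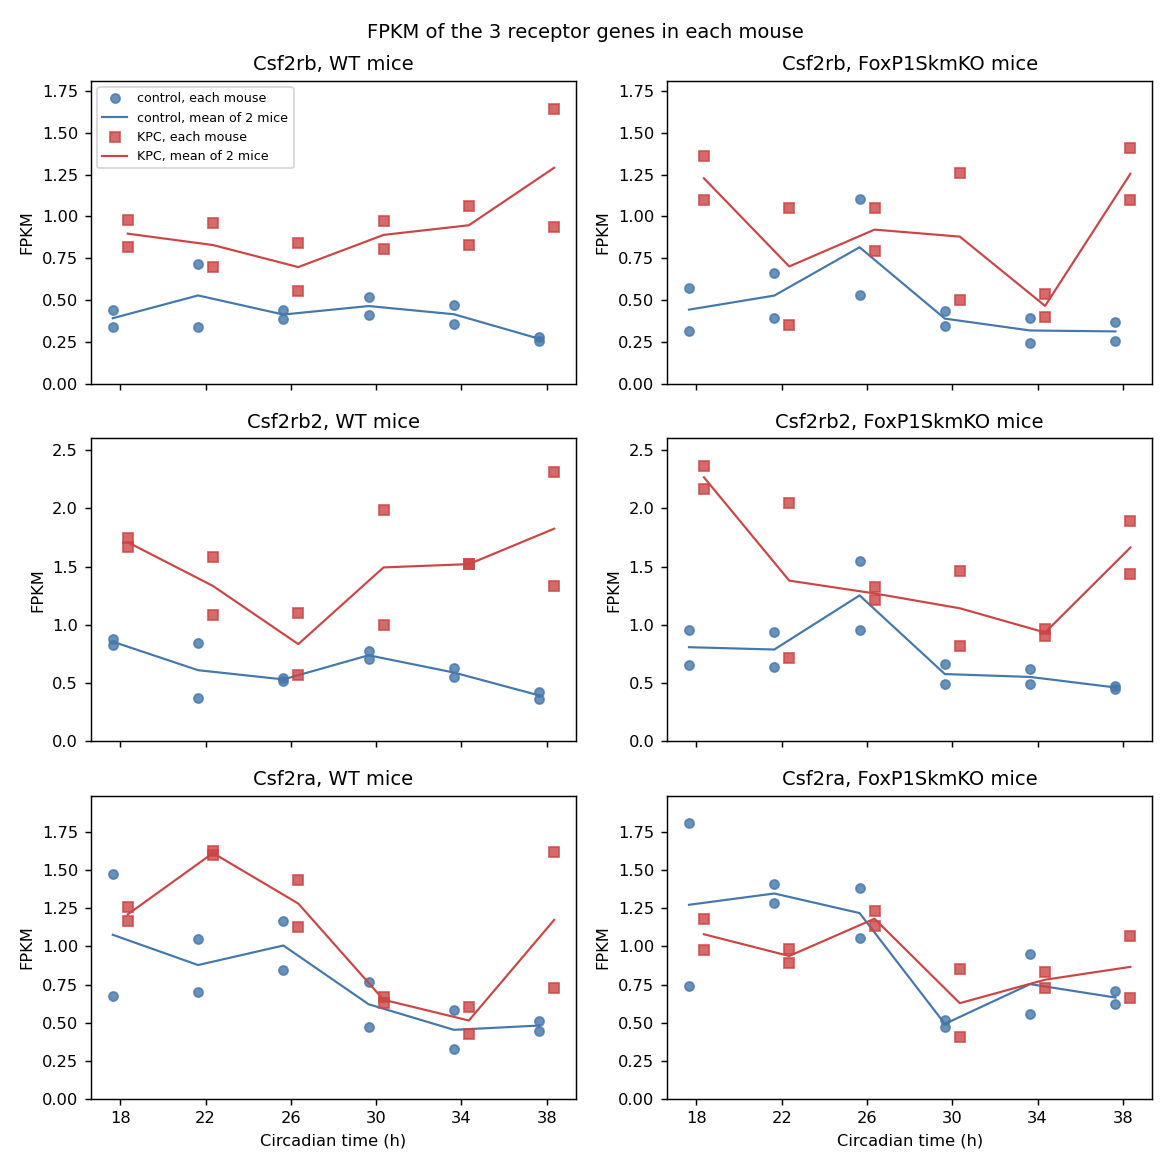
FPKM of Csf2rb, Csf2rb2, and Csf2ra (rows) against circadian time in hours, in WT (left) and FoxP1SkmKO (right) mice, where each point is 1 mouse and each line joins the means of 2 mice. The beta chain genes of KPC mice lie above those of controls at most times, whereas Csf2ra is high at CT18 to CT26 and low at CT30 and CT34 in both conditions.

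The difference between KPC and control mice is given next at single times, as a description of 2 mice against 2 whose variation with time was not tested in the count model. At CT38, *Csf2rb* was at 0.256 and 0.284 FPKM in the WT control mice and at 0.938 and 1.64 in the WT KPC mice, a 4.77-fold difference. At the same time, it was at 0.255 and 0.373 FPKM in FoxP1SkmKO control mice and at 1.1 and 1.41 in FoxP1SkmKO KPC mice, a 3.98-fold difference. CT38 had the largest fold of the 6 times in both genotypes for this gene. *Csf2rb2* at CT38 was at 0.366 and 0.423 FPKM in WT control and at 1.34 and 2.31 in WT KPC mice, a 4.61-fold difference. In FoxP1SkmKO mice, *Csf2rb2* at CT38 was at 0.451 and 0.475 FPKM in controls and at 1.43 and 1.90 in KPC mice, a 3.58-fold difference. For both genes and genotypes, the control mean at CT38 was the lowest of the 6 times. The KPC mean at CT38 was the highest of the 6 times except for *Csf2rb2* in FoxP1SkmKO mice, where it was higher at CT18.

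The folds were smaller at other times. In FoxP1SkmKO mice at CT26, *Csf2rb* was at 0.530 and 1.1 FPKM in controls and at 0.791 and 1.05 in KPC mice, a 1.12-fold difference. *Csf2rb2* at that time was at 0.956 and 1.55 FPKM in controls and at 1.21 and 1.33 in KPC mice, a 1.01-fold difference. The KPC and control mice overlapped there for both genes. In WT mice, the smallest fold was 1.55 at CT22 for *Csf2rb* and 1.56 at CT26 for *Csf2rb2*. Counting the times at which both KPC mice exceeded both control mice gave 5 of 6 for *Csf2rb* and 6 of 6 for *Csf2rb2* in WT mice, and 4 of 6 for each in FoxP1SkmKO mice, at CT18, CT30, CT34, and CT38. For *Csf2ra*, the count was 2 of 6 in WT mice, at CT22 and CT38, and 0 of 6 in FoxP1SkmKO mice. Over all 15637 genes tested in the averaged contrast, 1.16% were called higher and 0.627% lower in WT KPC mice, and 0.134% higher and 0.294% lower in FoxP1SkmKO KPC mice. These shares are given as background only, since the receptor genes were selected with this contrast known. They are another measure than the counts of times, for which the share of all genes was not computed.

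**Figure D2:**
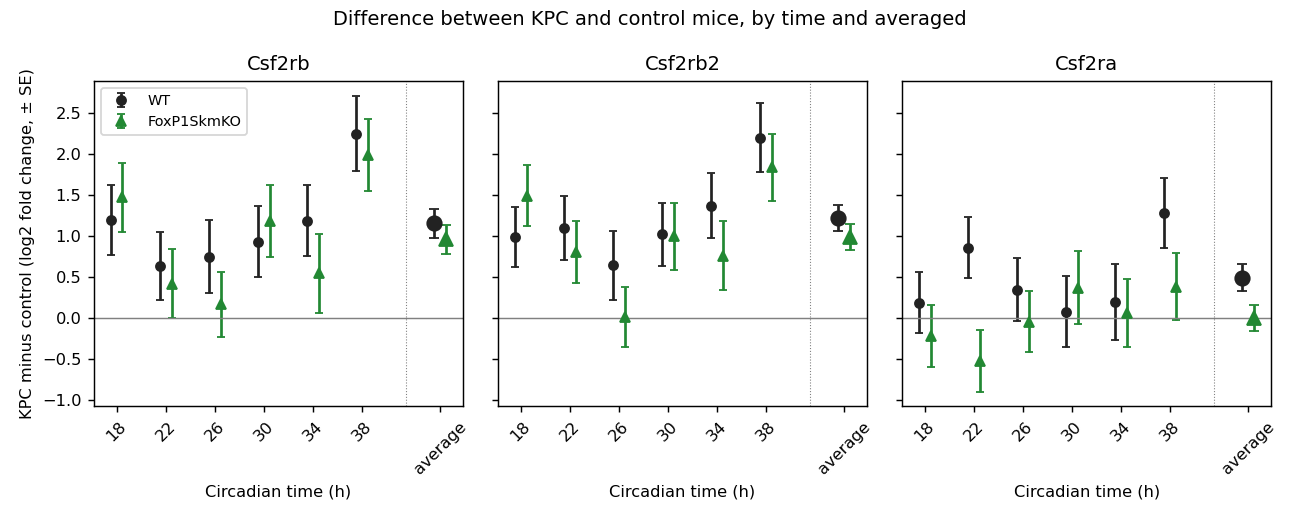
Log2 fold change between KPC and control mice (vertical axis) at each circadian time in hours and averaged over the 6 times (large symbols), for WT (circles) and FoxP1SkmKO (triangles) mice, with standard errors from the count model. The averages of Csf2rb and Csf2rb2 lie near 1 in both genotypes, and that of Csf2ra is 0.49 in WT mice and at 0 in FoxP1SkmKO mice.

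To ask whether muscle *Foxp1* genotype was associated with the level of the receptor genes, FoxP1SkmKO mice were compared with WT mice within each condition with edgeR's quasi-likelihood test. In control mice, the log2 fold change was 0.12 for *Csf2rb* (95% interval -0.27 to 0.50, adjusted p = 0.825), 0.21 for *Csf2rb2* (-0.145 to 0.56, adjusted p = 0.594), and 0.33 for *Csf2ra* (-0.01 to 0.67, adjusted p = 0.308). None of the 3 genes passed the test, in a contrast where 3.44% of all genes did. Without the CD45-rich control library, the values were 0.032, 0.157, and 0.20 for *Csf2rb*, *Csf2rb2*, and *Csf2ra*, and without control CT26 replicate 1 they were 0.009, 0.14, and 0.36. In KPC mice, the log2 fold change was -0.08 for *Csf2rb* (-0.42 to 0.26, adjusted p = 0.914), -0.03 for *Csf2rb2* (-0.33 to 0.28, adjusted p = 0.974), and -0.16 for *Csf2ra* (-0.49 to 0.17, adjusted p = 0.779). None passed here either, against 0.32% of all genes. Without the neutrophil-rich KPC library, the values were -0.21, -0.104, and -0.26.

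The difference of the KPC effect between genotypes was tested next, with the limit that its KPC effects both come from the contrast already known. The KPC effect in WT minus that in FoxP1SkmKO mice was 0.195 on the log2 scale for *Csf2rb* (95% interval -0.32 to 0.71, adjusted p = 0.928 by edgeR) and 0.24 for *Csf2rb2* (-0.23 to 0.70, adjusted p = 0.897 by edgeR). For *Csf2ra*, it was 0.49 (0.014 to 0.965, adjusted p = 0.764 by edgeR). Leaving out 1 library moved these values by more than 1.5 times in places, and none passed. For *Csf2rb*, the value was 0.325 without the neutrophil-rich KPC library, 0.108 without the CD45-rich control library, and 0.089 without FoxP1SkmKO control CT26 replicate 1. Over all libraries left out in turn, it ranged from 0.089 to 0.36 for *Csf2rb*, from 0.138 to 0.395 for *Csf2rb2*, and from 0.354 to 0.596 for *Csf2ra*. None of the 3 genes passed, and neither did any other gene (0% of 15637). At an unadjusted p under 0.05, 1020 genes differed. DESeq2 and limma on log2(FPKM + 0.1) and log2(FPKM + 1) called 0 genes as well. These intervals still allow a KPC effect on the beta chain genes that is larger or smaller in WT mice by the amounts given.

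The beta chain genes took similar shares of reads and were correlated across mice. The share of *Csf2rb* among the reads of both paralogs was 50.8% ± 5.81 (SD, n = 12) in WT control, 50.1% ± 5.26 in WT KPC, 48.8% ± 4.82 in FoxP1SkmKO control, and 48.5% ± 5.63 in FoxP1SkmKO KPC mice. On the FPKM scale, *Csf2rb2* exceeded *Csf2rb* in all 48 libraries, by 1.02-fold in the lowest, 1.56-fold in the median, and 2.43-fold in the highest. FPKM is divided by the annotated length, which is 4740 bases for *Csf2rb2* and 7277 for *Csf2rb*. With the read shares above, the higher FPKM does not mean more reads of *Csf2rb2*. Spearman's correlation of log2 CPM (counts scaled to library depth) between the beta chain genes was 0.72 over the 24 control libraries and 0.80 over the 24 KPC libraries, and by the smaller of these values each ranked first among 15637 genes for the other. Reads that the paralogs share contribute to this value by an amount that was not tested. Between *Csf2rb* and *Csf2ra*, the correlation was 0.57 in control and 0.11 in KPC libraries, and between *Csf2rb2* and *Csf2ra* it was 0.62 and 0.20. The FPKM ratio of *Csf2rb* to *Csf2ra* had a median of 0.545 in WT control and 0.897 in WT KPC mice, and of 0.436 and 1.14 in FoxP1SkmKO mice.

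**Figure D3:**
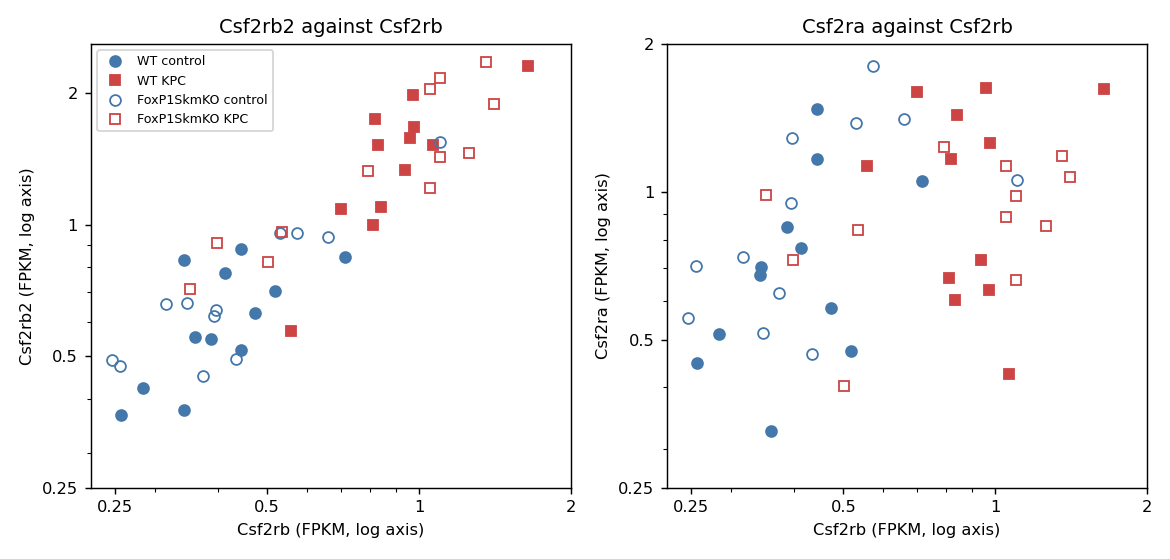
FPKM of Csf2rb2 (left) and of Csf2ra (right) against FPKM of Csf2rb on log axes, where each symbol is 1 of 48 libraries, circles are control and squares KPC mice, filled for WT and open for FoxP1SkmKO. The beta chain genes rise together across all libraries, whereas Csf2ra spreads over a similar range in control and KPC mice.

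By the same measure, the genes most like each receptor gene outside the family were listed, taking the smaller of the correlations over the 24 control and over the 24 KPC libraries. For *Csf2rb*, they were *Bcl3* (0.64), a modulator of NF-κB, *Nod1* (0.53), a sensor of bacterial cell wall fragments, and the pseudogene *Rps26-ps1* (0.53). For *Csf2rb2*, they were the chemokine gene *Ccl8* (0.62), *Fryl* (0.61), and *Bcl3* (0.60). For *Csf2ra*, they were *Fcgr2b* (0.82), which encodes an inhibitory Fc receptor, *Lyz2* (0.82), which encodes the lysozyme of macrophages and other myeloid cells, and *Mgl2* (0.81), a lectin gene of macrophages and dendritic cells. Each of these libraries supplies both values, so genotype, time, and library composition are shared by the points. *Bcl3* was higher in KPC mice, with a log2 fold change of 1.04 in WT (adjusted p = 0.000367 by edgeR) and 0.70 in FoxP1SkmKO mice (adjusted p = 0.0239). *Lyz2* had log2 fold changes of 0.37 (adjusted p = 0.181) and -0.01 (adjusted p = 0.998) and did not pass. By edgeR, *Ccl8* (1.94, adjusted p = 0.0137), *Fryl* (0.37, adjusted p = 0.0016), and *Nod1* (0.285, adjusted p = 0.00228) passed in WT mice. In FoxP1SkmKO mice, these did not pass (adjusted p = 0.293, 0.345, and 0.696). *Rps26-ps1*, *Fcgr2b*, and *Mgl2* passed in neither genotype.

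A 24 h sinusoid was fitted to FPKM across the 12 libraries of a group to describe the dependence on circadian time. *Csf2ra* in WT KPC mice was the only one of the 12 gene and group combinations with an unadjusted p below the threshold of 0.01 that the study used for rhythmic genes (p = 0.00622, adjusted p = 0.192, n = 12). Its amplitude there was 0.495 ± 0.114 FPKM (standard error) around a mean of 1.07, with the fitted peak at CT21.0. At this threshold, 4.22% of the 27396 genes with varying FPKM were called in WT KPC mice. In the other groups (n = 12 each), *Csf2ra* had an amplitude of 0.306 ± 0.112 FPKM without tumors in WT mice (p = 0.0664, adjusted p = 0.404), 0.426 ± 0.133 in FoxP1SkmKO control mice (p = 0.0327, adjusted p = 0.375), and 0.184 ± 0.0883 in FoxP1SkmKO KPC mice (p = 0.170, adjusted p = 0.692). The fitted peaks lay between CT21.0 and CT22.2 in all 4 groups. The p in WT KPC mice lay between 0.0106 and 0.0225 when any 1 of 7 of the 12 libraries was left out, namely either mouse at CT22, CT30, or CT34 or replicate 1 at CT26. It was 9.34e-06 without CT38 replicate 2, the KPC mouse at 1.62 FPKM. In edgeR's test of any difference between times on the counts, *Csf2ra* in WT KPC mice was the only combination to pass (adjusted p = 0.0304), in a test that called 11% of all genes there. *Csf2ra* did not pass in WT control (adjusted p = 0.0774), FoxP1SkmKO control (adjusted p = 0.0565), or FoxP1SkmKO KPC mice (adjusted p = 0.561), where 18.7%, 6.4%, and 5.99% of all genes did.

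The time dependence of *Csf2ra* can be read from single mice. In WT KPC mice, it was at 1.60 and 1.63 FPKM at CT22 and at 0.426 and 0.601 at CT34. In WT control mice, it was at 0.704 and 1.05 FPKM at CT22 and at 0.326 and 0.580 at CT34. In FoxP1SkmKO control mice, it was at 1.29 and 1.41 FPKM at CT22 and at 0.468 and 0.515 at CT30. The mice at CT22 were higher than the later mice in each of these comparisons, which were chosen after the values were seen. Over all 8 mice of a time, the median was 1.17 FPKM at CT18, 1.17 at CT22, and 1.15 at CT26, and 0.573 at CT30, 0.590 at CT34, and 0.683 at CT38. The 12 macrophage markers, summed over the same 8 mice, had medians of 49.9, 54.1, and 43.0 FPKM at CT18, CT22, and CT26, and of 29.7, 31.7, and 34.6 at CT30, CT34, and CT38. Other markers also varied with time. Mean *Ptprc* was lower at CT34 than at CT18 in all 4 groups, at 0.0844 and 0.236 FPKM in WT KPC mice. The summed mast cell markers of WT KPC mice were at 10.19 and 9.977 FPKM at CT18 and at 3.044 and 2.133 at CT34. In WT control and FoxP1SkmKO KPC mice, the mast cell values of these times overlapped. The part of any of these markers in the time dependence of *Csf2ra* was not tested.

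Neither beta chain gene was called rhythmic in any group. The p of *Csf2rb* was 0.297 in WT control, 0.116 in WT KPC, 0.0826 in FoxP1SkmKO control, and 0.428 in FoxP1SkmKO KPC mice. That of *Csf2rb2* was 0.837, 0.111, 0.0542, and 0.0622 in the same order. The share of all genes called was 4.92% in WT control, 4.07% in FoxP1SkmKO control, and 2.63% in FoxP1SkmKO KPC mice. The fitted *Csf2rb2* amplitude was 0.0494 ± 0.0820 FPKM in WT control mice and 0.398 ± 0.167 in WT KPC mice, with a fitted peak at CT38.1 in the latter. In FoxP1SkmKO KPC mice, it was 0.515 ± 0.186 FPKM with the peak at CT18.1, where the mice had 2.17 and 2.36 FPKM, against 0.908 and 0.961 at CT34.

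Testing whether the rhythm differed with the tumor gave no call for the 3 genes. This test compares KPC with control libraries, whose differences were already known when the genes were selected. In WT mice, the adjusted p was 0.752 for each of *Csf2rb*, *Csf2rb2*, and *Csf2ra*, and in FoxP1SkmKO mice it was 0.757 for each. No gene of the whole table passed this F test in either genotype (0% of 29593 and 0% of 31244 genes), while 1501 and 1590 genes had an unadjusted p under 0.05. The unadjusted p was 0.035 for *Csf2rb* in WT mice and 0.0369 for *Csf2rb2* in FoxP1SkmKO mice, and over 0.05 for the other gene and genotype combinations.

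The other parts of the receptor system were at low levels or showed little difference. Of the ligands and the remaining alpha chains, *Csf2*, which encodes GM-CSF, had 5 reads in all 48 libraries together, *Il3* had 1, *Il5* had 55, and the IL-5 alpha chain gene *Il5ra* had 2. These 4 genes did not pass the filter on low counts and were not tested. *Il3ra*, the IL-3 alpha chain gene, was at a mean of 0.627 FPKM in WT control and 0.854 in WT KPC mice, and at 0.693 and 0.772 in FoxP1SkmKO mice. Its log2 fold change was 0.43 in WT (standard error 0.14, adjusted p = 0.105 by edgeR) and 0.15 in FoxP1SkmKO mice (standard error 0.14, adjusted p = 0.738), so it did not pass in either.

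The gene lists were chosen with earlier results of these data known, so their counts are descriptions and not independent findings. Of 22 genes of receptor-proximal signaling, all of which were tested, 1 was higher and 0 lower in each genotype, where 1.16% (WT) and 0.134% (FoxP1SkmKO) of all genes were called higher and 0.627% and 0.294% lower. This was *Stat3*, a transcription factor downstream of many cytokine receptors, at a mean of 5.63 FPKM in WT control and 6.94 in WT KPC mice. Its log2 fold change was 0.30 in WT (standard error 0.05, adjusted p = 0.00169 by edgeR) and 0.22 in FoxP1SkmKO mice (standard error 0.05, adjusted p = 0.0435). The call in FoxP1SkmKO mice was lost without the neutrophil-rich KPC library (log2 fold change 0.209, adjusted p = 0.069 by edgeR) and with only the libraries compared, without CT18, CT26, CT30, or CT38, and by limma on either scale. *Jak2*, the kinase bound to the beta chains, had log2 fold changes of 0.08 and 0.01, *Stat5a* of 0.05 and -0.05, and *Stat5b* of 0.09 and 0.08 in WT and FoxP1SkmKO mice, none of which passed. These genes, like *Cish* and *Lyz2* elsewhere, are named for their known roles and were chosen after their values were seen. The median over the list was 0.05 in WT and 0.01 in FoxP1SkmKO mice, against 0.00 and 0.01 over all genes tested.

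Of 18 genes known to respond to STAT5 or GM-CSF, 15 were tested, of which 1 passed in WT mice and 0 in FoxP1SkmKO mice, against the same shares of all genes. This list was also chosen with earlier results known. *Socs3*, a feedback inhibitor of cytokine receptors, was at a mean of 0.903 FPKM in WT control and 1.62 in WT KPC mice, with a log2 fold change of 0.81 (standard error 0.19, adjusted p = 0.0227 by edgeR). In FoxP1SkmKO mice, its value was 0.62 (standard error 0.19, adjusted p = 0.111). The KPC effects of the genotypes differed by 0.19, which did not pass (adjusted p = 0.935). *Cish*, a target of STAT5, had log2 fold changes of 0.38 (adjusted p = 0.639) and 0.24 (adjusted p = 0.849). The medians over the list were 0.17 in WT and 0.07 in FoxP1SkmKO mice. Over these lists together, 38 of 45 genes were tested, of which 2 were higher and 0 lower in WT KPC mice, and 1 was higher and 0 lower in FoxP1SkmKO KPC mice, by edgeR, beside 1.16% higher and 0.627% lower in WT and 0.134% and 0.294% in FoxP1SkmKO mice over all genes. Without the neutrophil-rich library labelled FoxP1SkmKO KPC CT30 replicate 2, an alternative chosen after seeing the data, the count in FoxP1SkmKO mice was 0 and that in WT mice was 2.

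Chains of other cytokine receptors were compared in the same way. This list too was chosen with earlier results of these data known, so its counts are a description. Of 24 such genes, 22 were tested, 4 of which were higher in WT KPC mice and 1 of which was higher in FoxP1SkmKO KPC mice, with none lower, beside 1.16% and 0.134% of all genes called higher. *Osmr*, the oncostatin M receptor gene, had a log2 fold change of 0.79 in WT (adjusted p = 0.000387 by edgeR) and 0.46 in FoxP1SkmKO mice (adjusted p = 0.0652). *Il4ra*, the alpha chain gene of the IL-4 and IL-13 receptors, passed in both, at 0.71 (adjusted p = 0.000387) and 0.53 (adjusted p = 0.0177). *Il1r1*, an interleukin-1 receptor gene, was at 0.51 (adjusted p = 0.00522) and 0.12 (adjusted p = 0.684), and *Tnfrsf1b*, a tumor necrosis factor receptor gene, at 0.46 (adjusted p = 0.0311) and 0.18 (adjusted p = 0.556). The medians over the list were 0.06 and 0.03. *Csf3r*, the G-CSF receptor gene and also a neutrophil marker, had log2 fold changes of 1.30 (adjusted p = 0.0691) and 0.82 (adjusted p = 0.379) and did not pass, and is named after its values were seen.

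**Figure D4:**
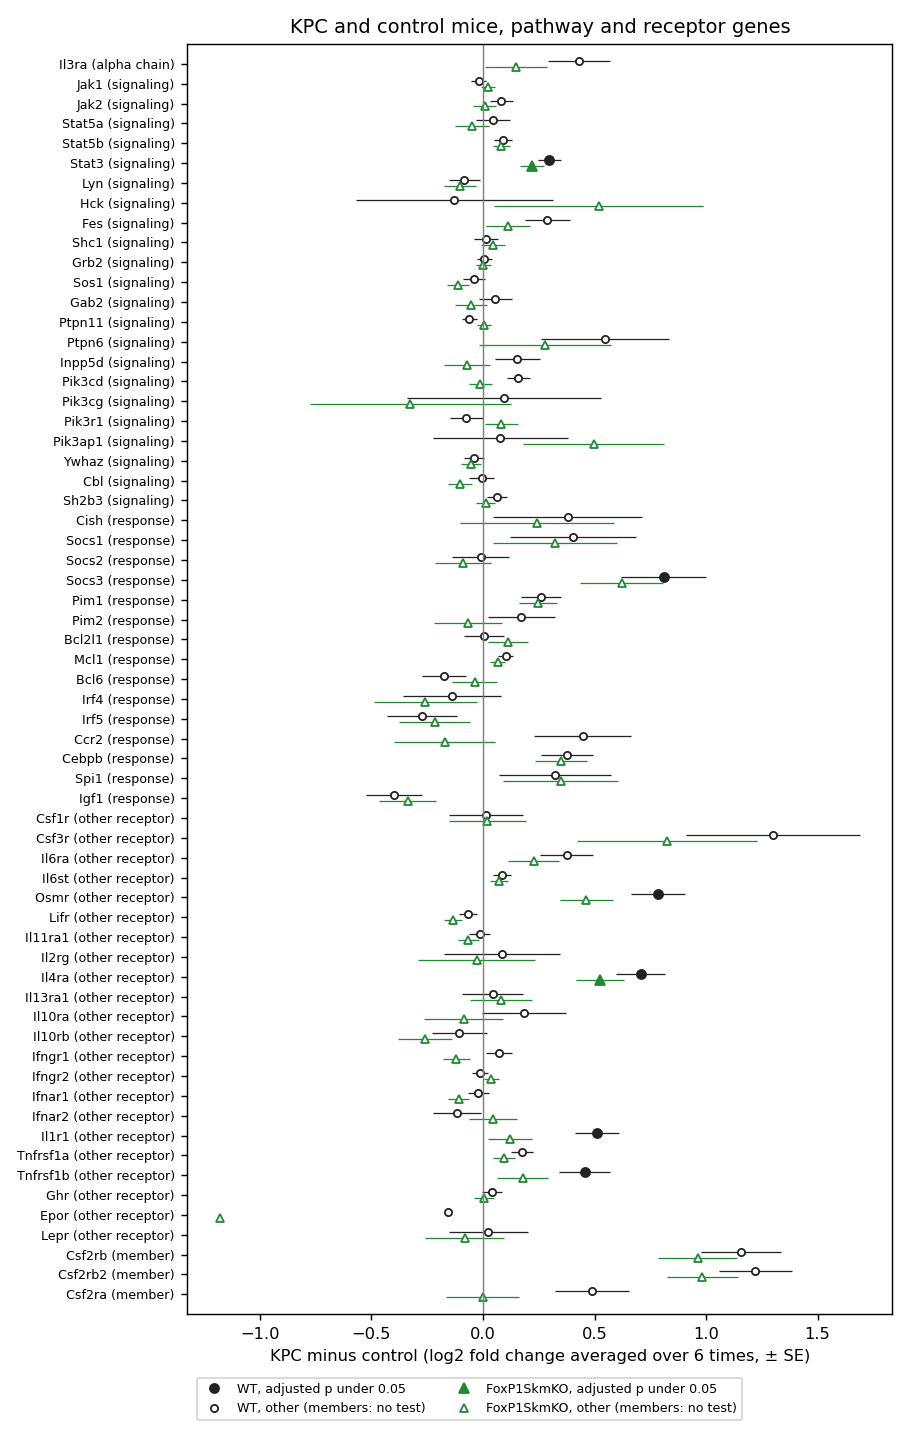
Log2 fold change between KPC and control mice averaged over 6 times (horizontal axis), with standard errors, for each tested gene of the 4 lists and the 3 receptor genes, in WT (circles) and FoxP1SkmKO (triangles) mice, where filled symbols passed an adjusted p of 0.05 and Csf2rb, Csf2rb2, and Csf2ra were not tested. Most signaling and response genes lie near 0, Stat3, Socs3, Osmr, Il4ra, Il1r1, and Tnfrsf1b are filled, and Epor has no error bar because 1 of its 24 groups held no reads.

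Markers of the cell types that carry these receptors were examined beside the results. None of the 12 macrophage, 5 monocyte, 5 tested mast cell, or 6 tested dendritic cell markers passed between KPC and control mice in either genotype. The summed macrophage markers were at 23.72 to 56.96 FPKM in WT control and 28.70 to 89.98 in WT KPC mice, and at 28.64 to 71.64 and 23.93 to 55.84 in FoxP1SkmKO mice. The summed monocyte markers had medians of 0.601 in WT control and 0.882 in WT KPC mice, and of 0.6578 and 0.9674 in FoxP1SkmKO mice. Of 8 neutrophil markers, 3 were tested and 2 were higher in WT KPC mice by edgeR, beside 1.16% of all genes. These were *S100a8* (adjusted p = 0.0315) and *S100a9* (adjusted p = 0.0269), which encode the calprotectin subunits. Their reads were few, at 212 and 356 over all 48 libraries, with none in 3 and 1 of the 24 groups. *S100a8* was at a mean of 0.0815 FPKM in WT control, 0.499 in WT KPC, 0.0896 in FoxP1SkmKO control, and 0.795 in FoxP1SkmKO KPC mice, where it did not pass (adjusted p = 0.0848). In FoxP1SkmKO mice, *S100a8* passed without control CT26 replicate 1 (adjusted p = 0.0238), and its KPC mean was 0.417 FPKM without the neutrophil-rich library (adjusted p = 0.183). The summed neutrophil markers had medians of 0.4594 in WT control and 2.175 in WT KPC mice, and of 0.4295 and 1.278 in FoxP1SkmKO mice. *Ly6g*, the defining neutrophil surface marker, had 3 reads in all 48 libraries. *Ptprc* was higher in WT KPC mice (log2 fold change 0.80, standard error 0.22, adjusted p = 0.0467) and was at 0.03 in FoxP1SkmKO mice (adjusted p = 0.976). Without the CD45-rich control library, an alternative chosen after seeing the data, the value in FoxP1SkmKO mice was 0.259 (adjusted p = 0.686), and the mean was 0.1 FPKM in controls and 0.117 in KPC mice. The WT value was 0.794 (adjusted p = 0.054) without FoxP1SkmKO control CT26 replicate 1, which ends that call.

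The remaining lists gave few calls. The 4 eosinophil markers had at most 17 reads each in all libraries and were not tested, and of 7 lymphocyte markers 1 was tested and did not pass. Of 6 endothelial markers, *Vwf* was higher (0.36, adjusted p = 0.00242) and *Kdr* lower (-0.27, adjusted p = 0.0412) in WT KPC mice by edgeR, and none passed in FoxP1SkmKO mice. None of the 6 muscle fiber markers passed in either genotype.

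The receptor genes differed in how they followed these markers from library to library. Spearman's correlation of *Csf2ra* with the summed macrophage markers was 0.84 over the 24 control and 0.85 over the 24 KPC libraries. For *Csf2rb*, it was 0.58 and 0.31, and for *Csf2rb2* 0.62 and 0.43. With the summed monocyte markers, the values were 0.60 and 0.59 for *Csf2rb*, 0.40 and 0.66 for *Csf2rb2*, and 0.50 and 0.34 for *Csf2ra* in control and KPC libraries. With the summed neutrophil markers, the values were 0.13 and 0.63 for *Csf2rb*, 0.25 and 0.65 for *Csf2rb2*, and 0.34 and 0.29 for *Csf2ra* in control and KPC libraries. With *Ptprc*, they were 0.49 and 0.10 for *Csf2rb*, 0.42 and 0.21 for *Csf2rb2*, and 0.52 and 0.72 for *Csf2ra*. With the summed dendritic cell markers, they were 0.05 and 0.25, 0.24 and 0.24, and 0.47 and 0.61 in the same order. With the summed endothelial markers, they were 0.46 and 0.10, 0.44 and 0.08, and 0.36 and 0.47. The points of each correlation share genotype, time, and library, and the values are descriptions. The part of these cell types in the higher beta chain levels of KPC muscle was not tested.

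**Figure D5:**
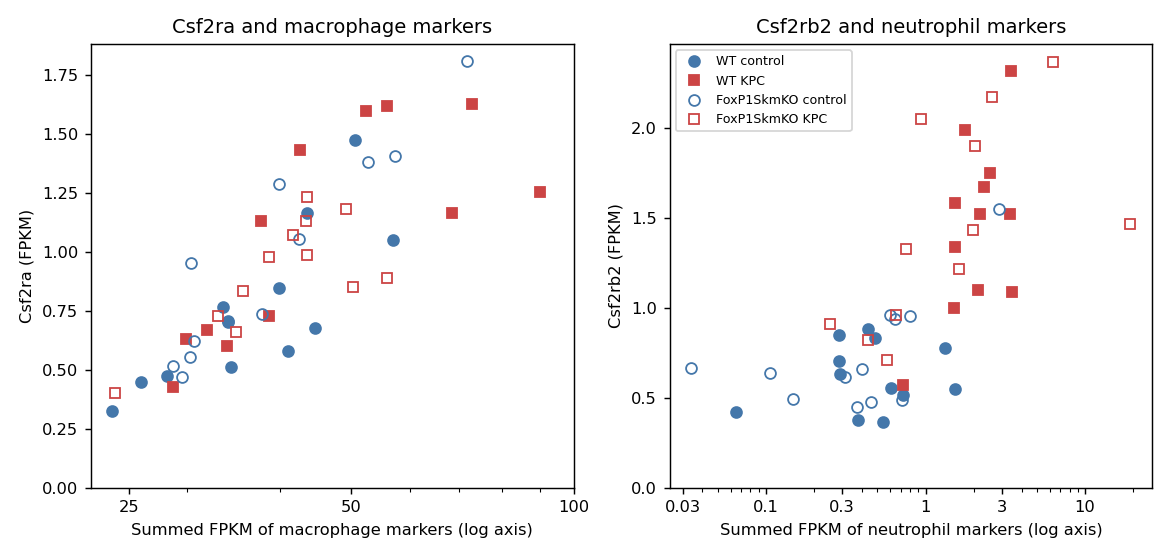
FPKM of Csf2ra against the summed FPKM of 12 macrophage markers (left) and of Csf2rb2 against that of 8 neutrophil markers (right), with log horizontal axes, where each symbol is 1 of 48 libraries, circles are control and squares KPC mice, filled for WT and open for FoxP1SkmKO. Csf2ra follows the macrophage markers in both conditions, and the library at 19.25 summed neutrophil FPKM stands apart on the right.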

How the data were processed

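RNA of 48 tibialis anterior muscles was sequenced by the study as poly-A selected, paired-end libraries. The authors deposited raw read counts per gene in 12 tables of 4 libraries each, and FPKM per gene and library in a table of all libraries, on mm39. The submitters' processing notes name HISAT2 2.0.5 and DESeq2 1.20.0, whereas the study's methods name STAR and HTSeq, so the aligner is uncertain. The authors' fold changes and p-values in these tables were not used. Genes absent from a count table have at most 1 read over its 4 libraries, and 28541 such single reads were restored from the FPKM.

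The 3 receptor genes and the gene lists were chosen with earlier results of these data known. Counts of all 48 libraries were fitted in edgeR 4.0.16 with 1 coefficient for each of the 24 groups of 2 mice, after filterByExpr (15637 genes kept) and TMM scaling, and contrasts were averaged over the 6 times. The quasi-likelihood test was used with Benjamini-Hochberg adjustment over all genes and a threshold of 0.05. Nothing in the labels says more about the mice of a group than their replicate number, so p-values measure the spread between these samples. A 24 h sinusoid was fitted to FPKM in each genotype and condition, with an F test on 9 residual degrees of freedom and a threshold of 0.01, and the difference in rhythm was tested with 18. The scripts were tested on simulated data. Outside the receptor genes and their ligands, up to 4 genes per list with the largest change past the threshold were named, and the 3 genes most like each receptor gene. *Csf1r*, *Csf3r*, and *Ccr2* are each in a receptor or response list and in a marker list. Alternatives were DESeq2 1.42.0, limma 3.58.1 on log2(FPKM + 0.1) and log2(FPKM + 1), other scaling and filters, the replicate block, summed paralogs, and leaving out each time or library.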

Additional observations from a re-analysis of the deposited data

How the results depend on the processing

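The beta chain genes were higher in KPC mice in all 248 alternative values computed for them. These values reuse the libraries on which the genes were selected, so their count adds no support. For each gene and genotype, 48 of them left out 1 library, including libraries of the other genotype. The values on log2(FPKM + 1), a scale that compresses low values, were smaller, at 0.438 for *Csf2rb* and 0.581 for *Csf2rb2* in WT mice and at 0.365 and 0.474 in FoxP1SkmKO mice. For *Csf2ra*, 61 of 61 alternative values were above 0 in WT mice and 16 of 61 in FoxP1SkmKO mice. The main value in FoxP1SkmKO mice was -0.001, so the sign of its alternatives carries little meaning. All 552 alternative values of the genotype effects and of their difference stayed on the same side of the threshold. Of the pathway genes, the count higher in WT KPC mice was 6 without the filter on low counts and 1 without CT22, CT34, or CT38, and the count lower was 3 without the filter and 1 without CT18. In FoxP1SkmKO mice, the count higher was 5 and the count lower 1 without the filter. The count higher was 2 without CT34, and 0 with only the libraries compared, without CT18, CT26, CT30, or CT38, by limma on either scale, and without FoxP1SkmKO KPC CT30 replicate 2, which was chosen after seeing the data. The cause was not tested. The rhythm of *Csf2ra* in WT KPC mice had p from 9.34e-06 to 0.0225 with 1 library left out, and an adjusted p of 0.192. In FoxP1SkmKO control mice, edgeR's test of any time difference gave *Csf2ra* an unadjusted p of 0.00397, under 0.01, and an adjusted p of 0.0565, and in FoxP1SkmKO KPC mice *Csf2rb2* had p from 0.00113, without CT22 replicate 1, to 0.178.

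Deviations of same-numbered mice had a median correlation of -0.0038 over 276 pairs of groups, from -0.324 to 0.234, with 12 pairs over 0.1. A median over all pairs of groups cannot exclude a pairing within some of them. With the replicate block, the KPC effect was 1.152 and 0.958 for *Csf2rb*, 1.217 and 0.981 for *Csf2rb2*, and 0.483 and 0.004 for *Csf2ra* in WT and FoxP1SkmKO mice, and the block changed no call. With 15 to 228 reads per gene and library, depth limits the precision of single values.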
